A study of Mus musculus with 48 samples.

Results

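The Period genes Per1, Per2 and Per3 and the cryptochrome genes Cry1 and Cry2 encode the repressor arm of the circadian clock. They were taken by symbol from a table of 23732 liver genes, in which each of the 5 has 1 row, and all 5 passed the filter on low counts that left 14836 genes. All mice were male C57BL/6 animals of 4 to 6 months, and all had a floxed Bmal1 gene, listed as Arntl in the table. The KO mice had in addition EsrCre, a universally expressed Cre recombinase switched on by tamoxifen, so deletion was not limited to liver, while the WT mice were littermates that lacked Cre. Tamoxifen was given by oral gavage to both genotypes for 5 days at 5 mg per day. After another 7 days the mice went into constant darkness for 36 h, and livers were then taken in the dark at 4 h intervals across 20 h. This gave 12 groups of 4 mice, which the labels place at zeitgeber times (ZT) from ZT0 to ZT20. Since Cre was present in KO mice alone, its own effects and the loss of Bmal1 cannot be told apart.

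In the clock of most cells, BMAL1 pairs with CLOCK or NPAS2 and activates the Per and Cry genes through E-box elements in their promoters. PER and CRY proteins then gather in a complex that enters the nucleus and represses the BMAL1 pair, and their later degradation lets the cycle restart. Per genes also answer to signals outside this loop, among them glucocorticoids, cAMP and temperature, while Cry1 carries sites for the REV-ERB and ROR nuclear receptors that delay it.

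RefSeq start sites of build GRCm38.p6 gave a promoter entry for 4 of the 5 genes. The 250 bases before the start are shown, and elements of the loop that lie outside them were not searched. Both strands were searched for the E-box CACGTG, the E-prime box CACGTT, the D-box TTATGTAA or TTACGTAA, the nuclear receptor half-site AGGTCA and the cAMP element TGACGTCA. Capitals mark every match, and no matches overlap each other.
Per1: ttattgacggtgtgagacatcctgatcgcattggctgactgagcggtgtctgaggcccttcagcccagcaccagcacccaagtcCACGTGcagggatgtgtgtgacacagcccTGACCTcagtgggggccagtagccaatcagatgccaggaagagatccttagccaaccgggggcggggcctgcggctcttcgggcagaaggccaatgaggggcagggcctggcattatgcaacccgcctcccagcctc
Per3: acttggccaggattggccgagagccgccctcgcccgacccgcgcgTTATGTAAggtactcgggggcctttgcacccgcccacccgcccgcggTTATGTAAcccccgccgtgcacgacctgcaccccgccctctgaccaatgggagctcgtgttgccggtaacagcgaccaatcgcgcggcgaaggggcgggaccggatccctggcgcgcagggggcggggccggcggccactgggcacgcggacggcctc
Cry1: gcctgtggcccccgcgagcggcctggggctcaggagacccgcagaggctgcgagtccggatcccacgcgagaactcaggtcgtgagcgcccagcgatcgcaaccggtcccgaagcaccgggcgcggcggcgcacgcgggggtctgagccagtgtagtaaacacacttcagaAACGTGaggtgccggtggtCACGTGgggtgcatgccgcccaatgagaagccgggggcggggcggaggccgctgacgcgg
Cry2: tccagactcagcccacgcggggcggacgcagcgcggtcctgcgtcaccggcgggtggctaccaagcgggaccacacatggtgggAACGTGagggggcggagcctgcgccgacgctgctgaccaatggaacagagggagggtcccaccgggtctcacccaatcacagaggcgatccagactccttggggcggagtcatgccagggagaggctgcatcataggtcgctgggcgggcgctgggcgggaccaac
The windows are chr11:69098699-69098948 on the plus strand and chr4:151044666-151044915, chr10:85185055-85185304 and chr2:92434070-92434319 on the minus strand. The Per1 window holds 1 E-box from -166 to -161 and 1 half-site from -137 to -132, counted from the base before the start. A second Per1 start, whose window is chr11:69099902-69100151, had no match. Cry1 has an E-box from -60 to -55 with an E-prime box from -79 to -74 upstream of it, and Cry2 has 1 E-prime box from -166 to -161. Per3 has 2 copies of the D-box, from -205 to -198 and from -158 to -151. Among 32851 RefSeq entries of the same length, 6.02% held an E-box, 3.85% an E-prime box, 0.931% a D-box, 14.02% a half-site and 1.55% the cAMP element. A match describes letters only; binding was not measured.

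Each library held 33562272 to 34035644 counts (median 33855278), so the deposited libraries had been brought to a common depth, and the lowest count of a member in any mouse was 69 (Per3 in WT). Levels are CPM, counts scaled to library size after edgeR's TMM correction. Summed over 5 hepatocyte markers, levels ran from 13966 to 28768 CPM in WT and from 15290 to 31197 CPM in KO, while 5 markers of Kupffer cells and macrophages summed to 512 to 1452 CPM (median 845 in WT and 991 in KO). Those of stellate cells and fibroblasts summed to 323 to 488 CPM, those of endothelium to 254 to 429 CPM and those of T, B and NK cells to at most 69.96 CPM, and the part of any of these cells in the results was not tested. In bulk liver, fewer cells of a type and less RNA per cell cannot be told apart. Counts over the whole of Arntl do not check the deletion, since Cre removes only some of its exons. Its group means ran from 1.35 CPM ± 0.349 at ZT8 to 43.9 CPM ± 3.67 at ZT20 in WT and from 10.1 to 17.9 CPM in KO (SD, n = 4). KO mice were lighter, 27.9 g ± 2.52 against 30.5 g ± 2.08 (SD, n = 24 each), and each genotype had 5 mice housed alone. Cage labels fall into 3 sets, A for ZT4 and ZT8, B for ZT12 and ZT16 and C for ZT20 and ZT0, and mice housed alone were placed by their time. Each set holds both genotypes, and time of day and cage set cannot be told apart. 2 WT mice stood apart from their groups in Per2 and Cry1, mouse 42 of ZT0 and mouse 40 of ZT20, and results that rest on them are also given without them.

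Per1, on chromosome 11 (ENSMUSG00000020893, mm9 68908719 to 68923462), was lowest in WT at ZT0 and highest at ZT12, whereas KO livers held a middle level at every time. In WT mice Per1 read 5.58, 2.43, 3.30 and 2.39 CPM at ZT0, and 64.7, 41.1, 37.9 and 55.0 CPM at ZT12. The WT group means ran 3.42, 7.86, 43.2, 49.7, 19.8 and 10.5 CPM from ZT0 to ZT20, a ratio of 14.5 between the highest and the lowest. In KO mice Per1 read 8.41, 14.8, 49.9 and 31.0 CPM at ZT0, and 11.6, 23.6, 34.3 and 26.2 CPM at ZT12. All 4 KO mice were thus above all WT mice at ZT0 and below all WT mice at ZT12, and the genotypes overlapped at the other times. KO group means stayed between 19.9 CPM at ZT4 and 31.5 CPM at ZT8. At ZT0 Per1 was higher in KO by 2.93 ± 0.53 on the log2 scale (SE, edgeR adjusted p = 0.00302). At ZT12 the change of -1.06 ± 0.48 did not pass (SE, adjusted p = 0.143).

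Per2, on chromosome 1 (ENSMUSG00000055866, mm9 93312561 to 93355907), differed little between WT mice at its peak and more at its trough. At ZT12 the WT mice read 78.1, 74.0, 75.5 and 75.2 CPM, and at ZT16 61.8, 61.7, 59.3 and 59.7 CPM. At ZT0 they read 19.8, 4.04, 7.01 and 2.81 CPM, and at ZT4 11.9, 7.33, 5.10 and 13.2 CPM. The value of 19.8 belongs to mouse 42, and at ZT20 mouse 40 read 8.69 CPM beside 23.7, 33.0 and 43.3 CPM in the others. In KO mice Per2 read 36.3, 20.9, 44.7 and 44.7 CPM at ZT0, and 34.4, 41.7, 50.8 and 43.9 CPM at ZT4. At ZT12 KO mice read 46.4, 31.2, 21.7 and 36.0 CPM. KO mice were above all WT mice at ZT0 and ZT4 and below all of them at ZT12 and ZT16. The log2 differences were 2.12 ± 0.41 at ZT0, 2.19 ± 0.41 at ZT4 and -1.16 ± 0.39 at ZT12 (SE; edgeR adjusted p = 0.00493, 0.00186 and 0.0452). At ZT16 the change was -1.07 ± 0.39 (SE, adjusted p = 0.1); it was called without WT mice 40 and 42 (-1.06, edgeR adjusted p = 0.0251) and with cage as a random block in limma voom (-1.16, adjusted p = 0.0488). The fall at ZT12 was not called when any 1 of WT mice 17, 19, 22 and 23 or KO mice 20, 21 and 24 was left out (adjusted p = 0.0547 to 0.149), nor with body weight in the model (adjusted p = 0.126).

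Per3, on chromosome 4 (ENSMUSG00000028957, mm9 150377761 to 150418774), reached its highest WT level earlier than the other Per genes. At ZT8 the WT mice read 55.7, 56.4, 58.3 and 62.8 CPM, and at ZT0 6.65, 2.59, 1.90 and 3.69 CPM. KO mice read 27.7, 12.6, 22.1 and 64.1 CPM at ZT0 and 26.7, 57.2, 38.9 and 26.2 CPM at ZT4. The lowest KO group was that of ZT12, with 15.5, 5.21, 14.8 and 12.0 CPM against 50.4, 43.01, 35.03 and 46.2 CPM in WT. Per3 was the member with the widest range of KO group means, from 11.9 CPM at ZT12 to 37.3 CPM at ZT4, a ratio of 3.14. KO mice were above all WT mice at ZT0, ZT4 and ZT20 and below all of them at ZT8 and ZT12. The log2 differences that passed were 3.09 ± 0.50 at ZT0, 1.72 ± 0.46 at ZT4 and -1.88 ± 0.46 at ZT12 (SE; edgeR adjusted p = 0.000851, 0.0266 and 0.00581). The call at ZT4 was lost without WT mouse 3 or 4 or KO mouse 5 or 6 (adjusted p = 0.0532 to 0.0959).

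Cry1, on chromosome 10 (ENSMUSG00000020038, mm9 84594447 to 84647799), ran later than the Per genes. WT mice read 7.15, 11.3, 11.01 and 6.45 CPM at ZT4 and 8.21, 8.86, 9.36 and 11.9 CPM at ZT8. They read 54.1, 59.0, 53.4 and 51.4 CPM at ZT16 and 56.8, 65.7, 65.01 and 35.8 CPM at ZT20, the last being mouse 40. At ZT0 mouse 42 read 54.3 CPM, near the ZT16 and ZT20 levels, while the other WT mice read 14.03, 26.0 and 12.9 CPM. KO mice read 29.9, 11.8, 23.3 and 30.1 CPM at ZT4 and 29.9, 26.2, 21.2 and 23.8 CPM at ZT8, and their group means stayed between 23.8 and 33.3 CPM. Cry1 was higher in KO by 1.40 ± 0.39 at both ZT4 and ZT8 on the log2 scale (SE; edgeR adjusted p = 0.0332 and 0.0192). At ZT16 and ZT20 the changes of -0.89 ± 0.38 and -0.88 ± 0.37 did not pass (SE; adjusted p = 0.167 and 0.287). The call at ZT4 was lost when any 1 of WT mice 2, 3, 4 and 8 or KO mice 1, 6 and 7 was left out (adjusted p = 0.0511 to 0.115), and with cage as a random block in limma voom (1.31, adjusted p = 0.0825). The call at ZT8 was lost without KO mouse 9 or WT mouse 11 or 12 (adjusted p = 0.0541 to 0.0602).

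Cry2, on chromosome 2 (ENSMUSG00000068742, mm9 92243803 to 92274200), changed least over the day. WT mice read 30.4, 29.3, 29.5 and 34.4 CPM at ZT0, and 53.2, 62.5, 50.3 and 64.8 CPM at ZT8. Their group means were 57.7 CPM ± 7.01 at ZT8, 49.0 ± 5.47 at ZT12 and 56.0 ± 3.68 at ZT16 (SD, n = 4 each). The means thus had 2 high points with a lower one between them. KO mice read 38.9, 40.2, 48.4 and 51.3 CPM at ZT0, all above WT, and 35.3, 41.5, 43.4 and 37.9 CPM at ZT16, all below the WT values of 55.4, 59.2, 51.0 and 58.3 CPM. The log2 difference was 0.53 ± 0.10 at ZT0 and -0.50 ± 0.10 at ZT16 (SE; edgeR adjusted p = 0.00493 and 0.00265).

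**Figure D1:**
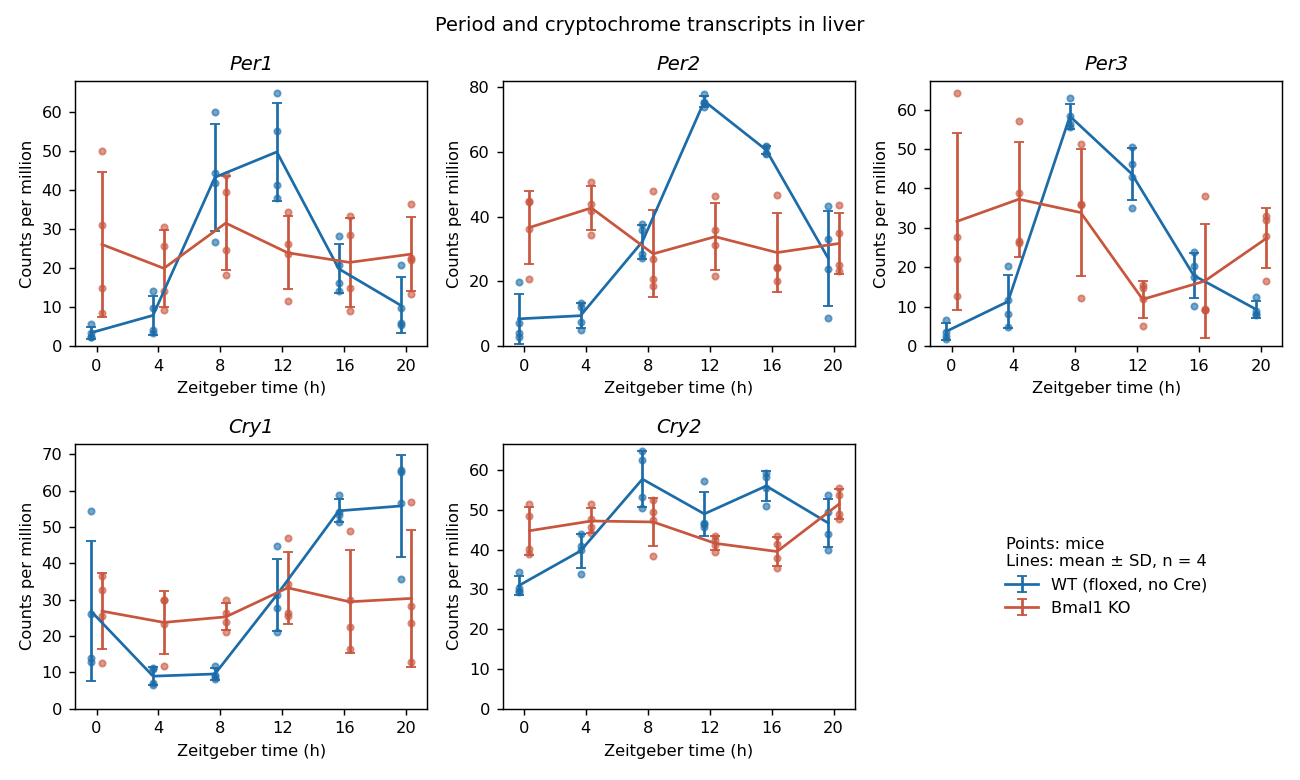
Level of each member (y axis, CPM from 0) against zeitgeber time (x axis, hours) in WT (blue) and KO (red) mice; points are mice and lines join group means ± SD, n = 4. KO group means of all 5 genes lie between the lowest and the highest WT group mean. How many of all genes do so was not computed.

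Across the 30 combinations of gene and time, edgeR called 11 differences, 8 higher and 3 lower in KO. By time, 4 of 5 members were higher at ZT0, where 1.68% of all genes tested were called (1.06% higher, 0.613% lower). At ZT4 3 of 5 were higher (3.79% of genes called, 1.9% higher, 1.89% lower), and at ZT8 1 of 5, Cry1, was higher (7.87%, 3.78% higher, 4.08% lower). At ZT12 2 of 5, Per2 and Per3, were lower (11.7%, 6.59% higher, 5.12% lower), and at ZT16 1 of 5, Cry2, was lower (5.37%, 2.6% higher, 2.77% lower). At ZT20, where 1.05% of genes were called (0.647% higher, 0.404% lower), 0 of 5 passed in edgeR and in DESeq2, and 3 had an unadjusted p under 0.05 in edgeR. The median log2 difference of the 5 members moved from 2.12 and 1.40 at ZT0 and ZT4 to -0.30, -1.06 and -0.50 at ZT8, ZT12 and ZT16, and was 0.22 at ZT20; over all genes it lay between -0.0094 and 0.012 at these times. The 4 KO mice lay wholly above the 4 WT mice in 10 of the 30 combinations and wholly below in 8. The share of all genes tested that separated in this way was not computed, so these counts only describe the members. Without the 4 libraries that lie farthest from their groups over all genes (KO mice 20 and 21 of ZT12 and 43 and 44 of ZT0), 10 differences were called: those of Per2 and Per3 at ZT12 were not (edgeR adjusted p = 0.322 and 0.0654), and Per3 at ZT20 was (adjusted p = 0.0495). That fit leaves 2 KO mice at ZT12 and at ZT0.

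**Figure D2:**
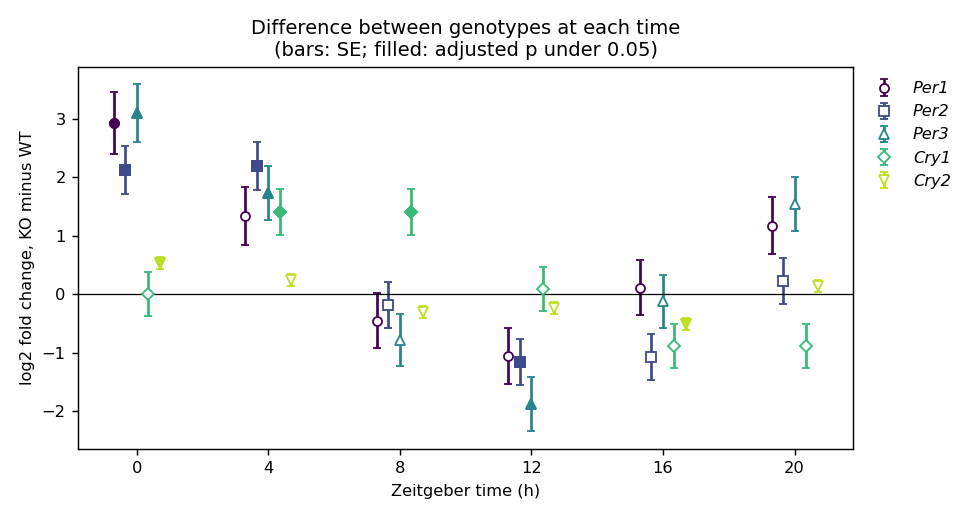
log2 fold change of KO against WT (y axis) at each zeitgeber time (x axis, hours) for the 5 genes, offset sideways; bars are SE and filled symbols have an edgeR adjusted p under 0.05. The 3 Per genes are above 0 at ZT0 and ZT4 and below it at ZT8 and ZT12, while Cry1 is above 0 at ZT4 and ZT8 and below it at ZT16 and ZT20.

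The difference between genotypes depended on the time for all 5 members (edgeR interaction, adjusted p = 0.00135 for Cry1, the largest, to 3.85e-06 for Per3; 20.7% of genes were called). Averaged over the 6 times, Per1 was higher in KO by 0.67 ± 0.20 and Per3 by 0.59 ± 0.19 on the log2 scale (SE; edgeR adjusted p = 0.0247 and 0.0369), 2 of 5 members against 8.86% of genes (4.94% higher, 3.92% lower). Per2, Cry1 and Cry2 had averages of 0.35 ± 0.16, 0.19 ± 0.15 and -0.02 ± 0.04 (SE; adjusted p = 0.173, 0.494 and 0.8294). The plain means over 24 mice were 22.4 CPM in WT and 24.4 CPM in KO for Per1, and 24.1 and 26.4 CPM for Per3. They were lower in KO for Per2 (35.6 CPM in WT and 33.7 CPM in KO), Cry1 (31.2 and 28.2 CPM) and Cry2 (46.6 and 45.2 CPM). For Per2 and Cry1 the plain means thus differed in the opposite direction to the log2 average. Those of Per1 and Per3 differed in the same direction, but little beside an SD between mice of 11.4 to 20.8 CPM. The log2 averages of Per1 and Per3 therefore do not show a raised plain mean. By cage set the mean log2 difference of Per1 was 0.44 in A, -0.47 in B and 2.05 in C, and that of Per3 was 0.47, -1.002 and 2.32. With body weight as a covariate neither average was called (adjusted p = 0.18 and 0.0665). Per1 was not called without KO mouse 44 of ZT0 (adjusted p = 0.0525) or without the 4 farthest libraries (adjusted p = 0.0929). Per3 was not called when any 1 of WT mice 3, 4, 29, 33, 45 and 47 or KO mice 5, 14, 18, 21, 26 and 46 was left out (adjusted p = 0.051 to 0.0868), nor with cage as a random block in limma voom (adjusted p = 0.0819). Per2 was called without WT mouse 42 of ZT0 (0.50, adjusted p = 0.0189) and without both mice 40 and 42 (0.45, adjusted p = 0.0189).

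Compared per kilobase of exon, so that genes of different length can be set side by side, the WT averages over 24 mice were 10.7 CPM per kb ± 2.401 for Cry2, 10.3 ± 7.08 for Cry1, 6.10 ± 4.51 for Per2, 4.01 ± 3.47 for Per3 and 3.98 ± 3.51 for Per1 (SD). Neighbours in this order differed by less than the spread between mice, which includes the daily swing. In KO mice the order was the same, with 10.4 ± 1.28, 9.31 ± 3.64, 5.78 ± 1.84, 4.40 ± 2.66 and 4.33 ± 2.04 CPM per kb (SD, n = 24 each). Few KO mice went outside the range of the WT group means. For Per1, Per3 and Cry1, 23 of 24 lay between the lowest and highest WT group mean, and 24 of 24 for Per2 and Cry2. The share over all genes tested was not computed, so these counts only describe the members. A wide WT swing in itself leaves room for such counts.

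All 5 members changed over time in WT, where edgeR called 47.9% of genes, and all 5 followed a 24 h wave there (48.1% of genes). In a least squares wave on log2 CPM, the amplitude, the distance from mean to peak, was 1.93 ± 0.21 for Per1, 1.86 ± 0.19 for Per2, 1.88 ± 0.19 for Per3, 1.49 ± 0.14 for Cry1 and 0.36 ± 0.07 for Cry2 (SE, 24 mice). These amplitudes are 14.5-fold, 13.1-fold, 13.5-fold, 7.93-fold and 1.64-fold from trough to peak. The median amplitude of all genes tested was 0.18 in WT and 0.11 in KO. Cry2 had a smaller amplitude than each of the other 4 genes, with differences of -1.57 to -1.14 (Wald test in the joint fit, adjusted p = 9.26e-07 or lower). Among Per1, Per2, Per3 and Cry1 no pair of amplitudes passed; the widest gap, Cry1 minus Per1, was -0.43 with a 95% interval from -0.95 to 0.08. The wave left 1 member poorly described: the WT means of Cry2 departed from a single 24 h wave (edgeR adjusted p = 0.00525). This was 1 of 5 members, against 3.37% of genes. The test does not tell which times made the departure, and the lower mean between the 2 high points of Cry2 was not tested alone.

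The fitted WT peaks came in the order Per3, Per1, Cry2, Per2 and Cry1. Fitted peak times were ZT 10.9 ± 0.40 for Per3, 11.6 ± 0.41 for Per1, 12.6 ± 0.71 for Cry2, 13.4 ± 0.40 for Per2 and 17.6 ± 0.36 for Cry1 (SE in hours). In the joint fit, which accounts for the genes being measured in the same mice, 7 of the 10 pairs were separated. Per2 peaked 1.81 h after Per1 (95% interval 0.98 to 2.64) and later than Per3, by 2.52 h (95% interval of the Per3 minus Per2 difference -3.4 to -1.65), with adjusted p = 0.000305 and 1.21e-05. Cry1 peaked 4.17 h after Per2 (3.22 to 5.12), 5.98 h after Per1 and 6.69 h after Per3 (adjusted p = 3.26e-08 or lower). The Per3 peak minus that of Per1 was -0.71 h (95% interval -1.42 to -0.013), which did not pass (adjusted p = 0.058). Cry2 could not be placed against Per1 (Cry2 minus Per1 0.996 h, 95% interval -0.30 to 2.29) or Per2 (Cry2 minus Per2 -0.81 h, -2.26 to 0.63). It came 1.71 h after Per3, and its peak minus that of Cry1 was -4.98 h (adjusted p = 0.00991 and 9.51e-06). Sampling every 4 h over 1 cycle underlies these times. The fitted peak of Cry2 marks no observed maximum, since a single wave described this gene poorly. Its WT mean was 49.0 CPM at ZT12, against 57.7 CPM at ZT8 and 56.0 CPM at ZT16. The order of all 5 was the same in each of the 24 fits without 1 WT mouse, and the lead of Per3 over Per1 passed without WT mouse 3, 27, 28, 33, 40 or 47 (adjusted p = 0.0281 to 0.0418).

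In KO mice no member passed for a time effect or for a 24 h wave. edgeR called 0 of 5 for a time effect (0.91% of genes called; 2 of 5 had an unadjusted p under 0.05, Per3 and Cry2) and 0 of 5 for a wave (0.984% of genes; only Per3 had an unadjusted p under 0.05). DESeq2 and limma voom also called 0 of 5 in both tests. KO amplitudes were 0.15 ± 0.22 for Per1, 0.21 ± 0.14 for Per2, 0.78 ± 0.23 for Per3, 0.19 ± 0.17 for Cry1 and 0.10 ± 0.05 for Cry2 (SE). The wave differed between genotypes for all 5 (edgeR adjusted p = 0.000181 for Cry2, the largest, to 1.75e-07 for Per2; 22.8% of genes). Per3 came nearest to a wave in KO, with a fitted peak at ZT 2.42 ± 1.13 h against ZT 10.9 in WT and an adjusted p of 0.0939. KO mouse 26 of ZT16 read 38.1 CPM beside 9.11, 9.26 and 9.42 CPM in its group. Without this mouse both the wave and the time effect of Per3 passed (edgeR adjusted p = 0.0338 and 0.0396). Of 48 fits without 1 mouse it was the only 1 in which either passed, with adjusted p of up to 0.156 for the wave. A KO wave of Per3 is therefore not shown.

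**Figure D3:**
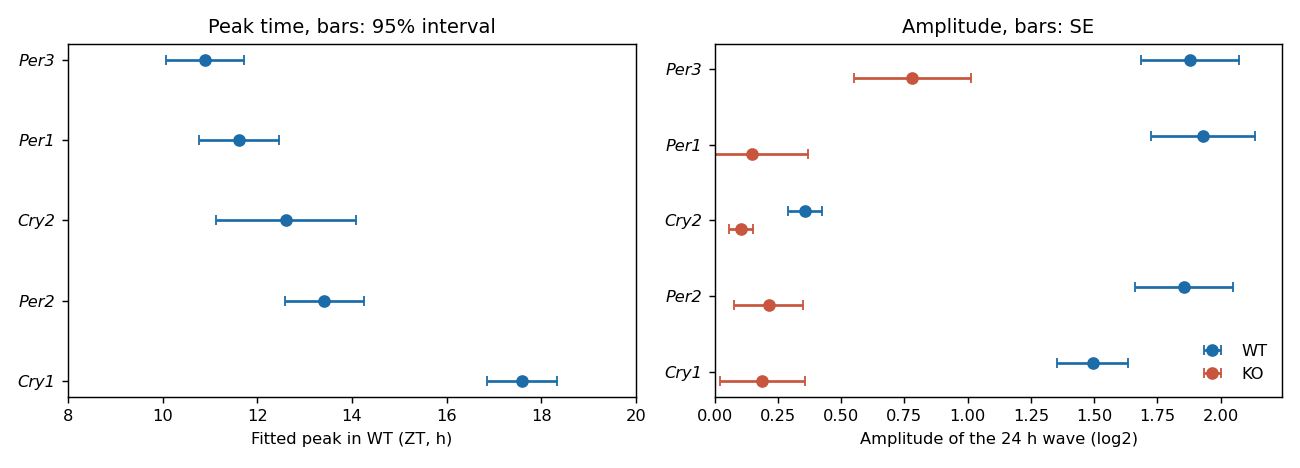
Left, fitted peak of the 24 h wave in WT (x axis, zeitgeber hours) with its 95% interval for each gene; right, amplitude (x axis, log2 distance from mean to peak) with its SE in WT (blue) and KO (red). Peaks run from ZT 10.9 for Per3 to ZT 17.6 for Cry1, and every KO amplitude is below its WT amplitude.

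Mice of 1 genotype and time also differed among themselves. The SD of log2 CPM within groups was 0.66 for Per1, 0.70 for Per2, 0.54 for Per3, 0.50 for Cry1 and 0.15 for Cry2 in WT, and 0.80, 0.48, 0.80, 0.62 and 0.14 in KO. For none of the 5 did the permutation test of KO against WT pass (adjusted p = 0.414 to 0.684; 0 had an unadjusted p under 0.05). The SD of Per2 in WT rests on mice 40 and 42: without them its log2 ratio of KO over WT turned from -0.56 to 0.24.

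These deviations from group means showed which members moved together from mouse to mouse. For 24 mice of each genotype, 10 pairs of members and 20 pairs with Arntl, Npas2, Nr1d1 (REV-ERBα) and Dbp (a D-box activator driven by E-boxes) were correlated. KO mice were also correlated on levels, and p-values were adjusted over these 90 relations. The share of other gene pairs that would pass was not computed, so counts of calls describe the chosen pairs only. Permutations of deviations kept mice within their time, so an r that rests on a few distant mice can be large without passing. Permutations of KO levels moved mice freely across times. In KO mice Per3 was high where Cry1 was low, at r = -0.733 and rho = -0.783 (permutation p = 6e-05 and 4e-05, adjusted p = 0.00054 and 0.00045). The relation was r = -0.742 without the 2 mice farthest out and -0.717, -0.802 and -0.739 in cage sets A, B and C. In KO mouse 46 of ZT0, for example, Per3 was the highest of its group at 64.1 CPM and Cry1 the lowest at 12.7 CPM. Per3 ran with Per2 (r = 0.664, rho = 0.635, permutation p = 0.00508 and 0.00535, adjusted p = 0.0196 and 0.0201; r = 0.542 without the 2 farthest and 0.632 to 0.705 in the 3 sets), a call lost without KO mouse 26 (r = 0.567, adjusted p = 0.0815). Per3 also ran with Cry2 (r = 0.625, rho = 0.576, permutation p = 0.0101 and 0.0118, adjusted p = 0.0313 and 0.0367; r = 0.555 without the 2 farthest). In sets A, B and C that r was 0.935, 0.305 and 0.63, and the call was lost without any 1 of KO mice 5, 9, 14, 37, 43 and 46 (adjusted p = 0.0529 to 0.126).

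Of the 20 KO pairs with the other clock genes, 12 passed, and the closest involved Cry1. How many pairs with genes outside the clock would pass was not computed. With Nr1d1, whose product represses Cry1, r was -0.911 and rho -0.898, and with Dbp r was -0.872 and rho -0.893 (all permutation p = 1e-05, the smallest 100000 permutations can give; adjusted p = 0.00018 for r and 0.000225 for rho). Without the 2 farthest mice these were -0.905 and -0.883, and within cage sets they lay between -0.805 and -0.953. Cry1 ran with Npas2 (r = 0.778, rho = 0.777, permutation p = 5e-05 and 8e-05, adjusted p = 0.00054 and 0.00072; r = 0.689 without the 2 farthest). In sets A, B and C that r was 0.456, 0.951 and 0.794. It also ran with Arntl (r = 0.731, rho = 0.707, permutation p = 0.00017 and 0.00051, adjusted p = 0.00125 and 0.00306; r = 0.735 without the 2 farthest, 0.876, 0.553 and 0.775 in the sets). Per3 had the mirrored signs: r was 0.871 with Dbp, 0.668 with Nr1d1, -0.738 with Npas2 and -0.707 with Arntl. Their rho values were 0.866, 0.67, -0.703 and -0.68 (permutation p = 6e-05, 0.00098, 0.00058 and 0.00114 for r, adjusted p = 0.00054, 0.00441, 0.00275 and 0.00489). These 8 relations of Cry1 and Per3 passed in each of the fits without 1 mouse.

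Per2 and Cry2 held the other 4 calls in KO, all less firm. Per2 gave r = -0.619 with Arntl (rho = -0.577, permutation p = 0.00463, adjusted p = 0.0189, lost without KO mouse 14 or 26). With Dbp it gave r = 0.572 and rho = 0.504 (permutation p = 0.0152 and 0.0316, adjusted p = 0.0401 and 0.0729), called for r in 36 of 48 fits without 1 mouse. Fits without a WT mouse left this r unchanged and could move only the adjustment of its p-value. Cry2 gave r = -0.689 with Arntl (rho = -0.677, permutation p = 0.006, adjusted p = 0.0208) and 0.612 with Dbp (rho = 0.6, permutation p = 0.00946, adjusted p = 0.0304), both lost without KO mouse 5 and the latter also without KO mouse 9, 14, 37, 43 or 46. In set B the r of Cry2 was 0.0039 with Arntl and -0.093 with Dbp, so neither held there. Per1 had no call in KO, with r between -0.405 and 0.2 for the 4 genes and between -0.154 and 0.543 for the other members. With KO levels over all 24 mice in place of deviations, 3 of 10 member pairs and 11 of 20 others passed, among them Per3 with Cry1 (r = -0.692) and Cry1 with Nr1d1 (r = -0.799).

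**Figure D4:**
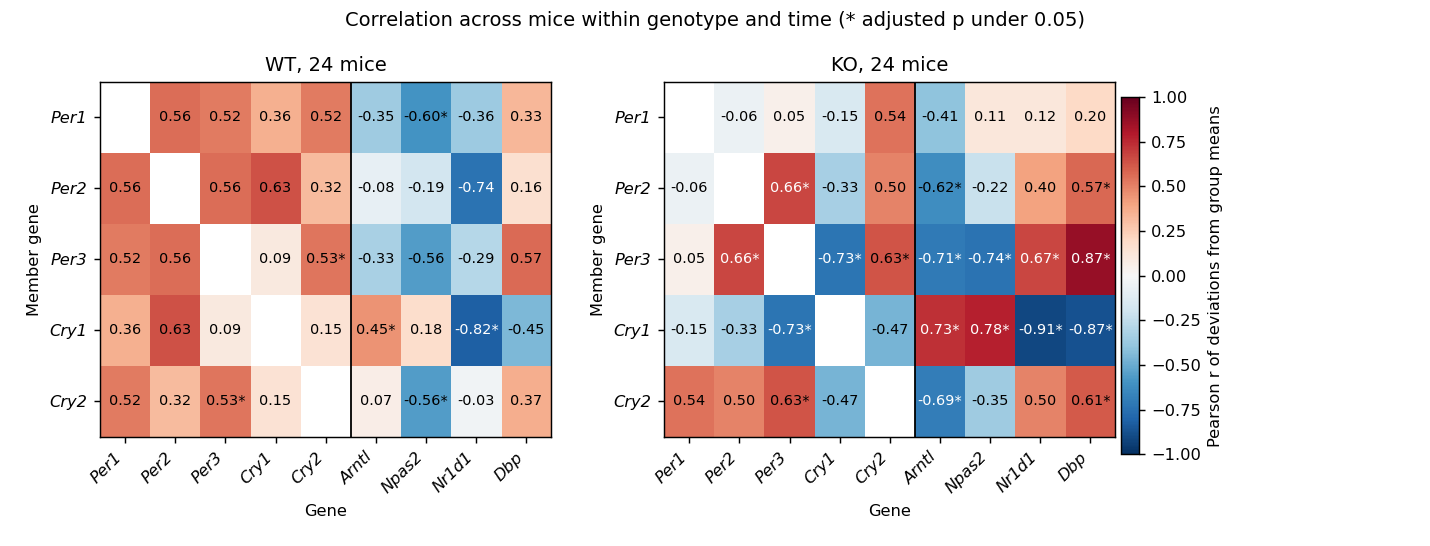
Pearson r of deviations from group means for each member (rows) with the other members and with Arntl, Npas2, Nr1d1 and Dbp (columns, right of the line), 24 WT mice on the left and 24 KO mice on the right; colour runs from -1 to 1 and an asterisk marks an adjusted permutation p under 0.05. Per3 and Cry1 have opposite signs with each of the 4 other genes in KO, and Per1 has no asterisk there.

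In WT mice 1 of 10 member pairs passed, Per3 with Cry2 (r = 0.532, rho = 0.561, permutation p = 0.00524 and 0.00397, adjusted p = 0.0196 and 0.0162; r = 0.384 without the 2 farthest). Its r was 0.668, 0.465 and 0.417 in sets A, B and C, and the call was lost without WT mouse 4 or 29 (adjusted p = 0.0548 and 0.0541). Of the 20 other WT pairs 4 passed: Cry1 with Nr1d1 (r = -0.818, rho = -0.645) and Arntl (0.45, 0.417), and Npas2 with Per1 (-0.602, -0.47) and Cry2 (-0.562, -0.528). Their permutation p-values for r were 0.00042, 0.00857, 0.0147 and 0.0132 (adjusted p = 0.00222, 0.0286, 0.04 and 0.0371), and for rho the relations of Cry1 with Arntl and Per1 with Npas2 did not pass (adjusted p = 0.109 and 0.104). Over the 48 fits without 1 mouse, Cry1 with Nr1d1 was called in 48, Cry1 with Arntl in 42, Cry2 with Npas2 in 39 and Per1 with Npas2 in 35, with adjusted p of up to 0.127 for the last. Fits without a KO mouse left r in WT unchanged and could move only the adjustment of its p-value. Without WT mice 40 and 42, r for Cry1 and Nr1d1 was -0.474 and its call was lost (adjusted p = 0.0795). The calls of Cry1 with Arntl and Cry2 with Npas2 were also lost (permutation test, adjusted p = 0.0783 and 0.0786). Their r moved less, to 0.589 from 0.45 and to -0.519 from -0.562. Per3 and Cry1, which ran opposite in KO, gave r = 0.094 in WT (adjusted p = 0.827), and -0.495 without these 2 mice (adjusted p = 0.112). The difference of the correlations between genotypes passed for 0 of 30 pairs in the permutation test (lowest adjusted p = 0.0636, for Per2 with Nr1d1), and 11 had an unadjusted p under 0.05. A relation called in 1 genotype is therefore not shown to differ from the other.

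**Figure D5:**
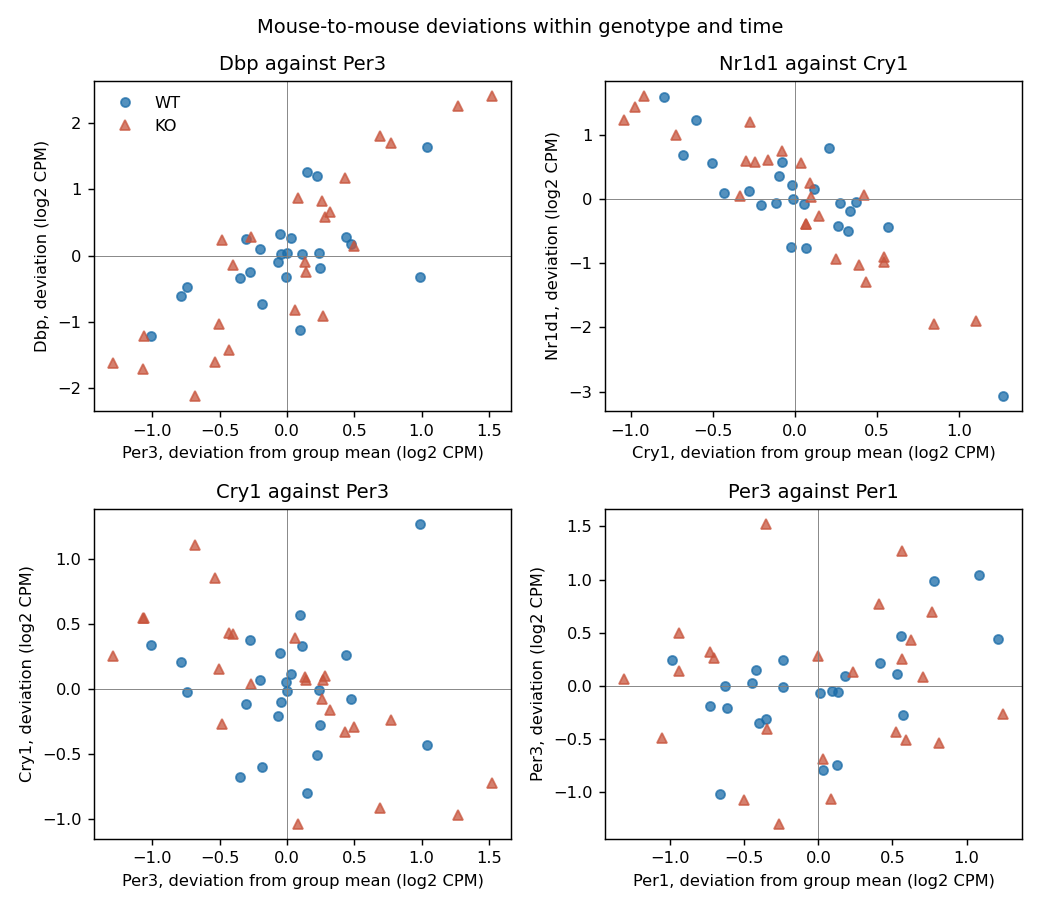
Deviation of log2 CPM from the group mean for 4 pairs of genes, 1 point per mouse, WT as blue circles and KO as red triangles. In KO mice Dbp runs with Per3 (r = 0.871), Nr1d1 runs against Cry1 (r = -0.911) and Cry1 against Per3 (r = -0.733), while Per3 with Per1 did not pass (r = 0.049); the WT point at the lower right of the Nr1d1 panel is mouse 42 of ZT0.

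Genes with the pattern most like each member were ranked by r over mice among 12291 genes of at least 1 CPM; the r values describe likeness and carry no test, and WT mice of all times enter together. Over 24 WT mice Per1 was closest to Gys2, the liver glycogen synthase (r = 0.946), Slc12a4 (0.944) and the deubiquitinase gene Usp2 (0.937). Per2 was closest to Srm, spermidine synthase (0.938), 1600002H07Rik (0.934) and Ndufaf4 (0.929). Per3 was closest to Tef, a D-box activator (0.98), Gys2 (0.963) and Coq10b (0.939), and Cry1 to Ddit4 (0.96), Ttc37 (0.943) and Zfp454 (0.929). Cry2 had lower values, 0.836 for Anpep, 0.834 for the cell cycle kinase gene Wee1 and 0.818 for Foxo3. Taken as deviations over 24 KO mice, Per3 was again closest to Tef (0.896), followed by Dbp (0.871) and Wee1 (0.838). Per1 was closest in KO to Pim3 (0.866), Errfi1 (0.864) and Col13a1 (0.793), and Per2 to Fam102a (0.79), the fatty acid synthase gene Fasn (0.787) and Rnf43 (0.784). Cry1 was closest to 1110067D22Rik (0.878), Clpx (0.862) and Pdgfc (0.856), and Cry2 to Lpin2 (0.771), Tnfrsf19 (0.749) and Rdbp (0.729).

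Genes that act on PER and CRY proteins had small daily swings. Of 17 kinases, ligases, proteases and phosphatases that modify them, 5 had a wave that differed between genotypes (29.4%, against 22.8% of all genes), and their median amplitude was 0.10 in WT and 0.09 in KO. The clearest was Usp2, whose amplitude was 1.52 in WT and 0.24 in KO (edgeR adjusted p = 1.04e-06), followed by Ppp1ca, a catalytic subunit of protein phosphatase 1 (0.25 and 0.11, adjusted p = 4.96e-06), and Ddb1 (both 0.11, adjusted p = 0.0191). On average over the times 1 of 17 was called (5.88%, against 8.86% of all genes), Fbxl21, which encodes an F-box protein and was higher by 0.20 ± 0.05 (SE, adjusted p = 0.0122). Of 14 partners found in PER complexes 2 had a wave that differed (14.3%), Timeless and Sfpq (edgeR adjusted p = 0.00045 and 0.0331).

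A wave that differed between genotypes was called for 22.8% of all genes. Among 15 genes of glucocorticoid, cAMP, heat shock and serum signals that reach Per promoters, it was called for 7 (46.7%). These included Hsp90aa1 (amplitude 1.03 in WT and 0.09 in KO), Fkbp5 (0.96 and 0.21) and Hsph1 (1.07 and 0.15; edgeR adjusted p = 3.47e-06, 5.80e-06 and 0.00012). On average 4 of 15 were called, all higher in KO (26.7%, against 8.86% of all genes): the chaperone gene Hspa8 by 0.36 ± 0.08, the glucocorticoid target Tsc22d3 by 0.44 ± 0.12 and Sgk1 by 0.19 ± 0.06 (SE; adjusted p = 0.00317, 0.0125 and 0.0311), and Hsph1, named for its count, at adjusted p = 0.0422. Against 22.8% of all genes, in the lists of the loop itself the wave differed for 3 of 3 positive-arm genes. It differed for 3 of 4 tested REV-ERB and ROR genes and 7 of 7 output genes and other repressors. On average 1 of these 14 was higher, Npas2 by 1.90 ± 0.30, and 1 was lower, Bhlhe41 by 0.67 ± 0.21 (SE; adjusted p = 3.19e-05 and 0.0395). Of the 7 genes called on average over all these lists, the count was 2 with body weight as a covariate and 4 without the 4 farthest libraries.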

How the data were processed

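Poly-A RNA from 48 livers was sequenced, 24 per genotype. Per the labels' protocols the library kit was TruSeq v2, and per the submitters' processing notes the tools were CASAVA and STAR 2.4.0f1 with mouse build mm9. The authors deposited whole-number read counts per gene. Gene models, treatment of reads matching several genes and the step that gave a common depth are not given in the sources used here. Strand was not recorded, so reads of overlapping antisense genes cannot be told apart.

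Counts were tested with edgeR 4.0.16 (R 4.3.3, limma 3.58.1): filterByExpr with a minimum count of 10 kept 14836 genes, and libraries were scaled by TMM factors of 0.898 to 1.14. Quasi-likelihood models had 1 mean per group (36 residual degrees of freedom) or a 24 h cosine and sine per genotype (42). P-values were adjusted by Benjamini and Hochberg's method across the genes tested and called under 0.05, and all tests were two-sided or F tests. log2 CPM used a prior count of 2. WT peaks came from a joint least squares fit with delta-method errors (21 degrees of freedom, adjusted over 10 pairs). Permutation tests drew 100000 resamples with SciPy 1.17.1. Exon lengths are the union of GENCODE basic exons. The scripts were tested on simulated data.

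Named genes are the 5 members, the 3 genes most alike per member in WT and in KO, the 4 correlation partners, and the up to 3 smallest p-values per clock list; some list genes are not reported here. The members and lists were chosen with earlier results of these data known. Alternatives were DESeq2 1.42.0, other scaling, no filter, a prior count of 0.5, body weight, housing, cage as a block, and mice left out. Leaving out WT mice 40 and 42 was chosen after seeing the data. Each mouse is 1 library; p-values measure the spread between mice.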

Additional observations from a re-analysis of the deposited data

Results flagged for a closer look

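In KO mice of ZT16, mouse 26 stood far above the others of its group in both Per2 (46.8 CPM, against 20.2 to 24.4 CPM) and Per3 (38.1 CPM, against 9.11 to 9.42 CPM). In WT mice of ZT12, mouse 23 stood above the others in Cry2 (57.1 CPM, against 45.6 to 46.8 CPM). Of 60 groups of 4 values examined, these 3 exceeded Dixon's 95% limit; chance flags about 1 in 20 groups, which is 3 of 60.

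The KO against WT difference of every member changed with the time of day in edgeR's interaction test. The adjusted p-values were 0.000521 for Per1, 9.11e-06 for Per2, 3.85e-06 for Per3, 0.00135 for Cry1 and 5.96e-06 for Cry2. The 24 h wave also differed between genotypes for every member, with edgeR adjusted p-values of 4.99e-05 for Per1, 1.75e-07 for Per2, 9.91e-07 for Per3, 7.00e-05 for Cry1 and 0.000181 for Cry2.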

How the results depend on the processing

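The interaction, the WT time effect and wave, and the wave difference were called for 5 of 5 members in every alternative run, including the 48 fits without 1 mouse (5 to 5). Departure from a 24 h wave stayed at 1 to 1 and the spread test at 0 to 0 without 1 mouse. The count of members called on average was 2, and 0 with body weight in the model, 1 without the 4 farthest libraries, 1 with cage as a random block in limma voom, and 1 to 3 without 1 mouse. The count of clock list genes called on average was 7, and 2 with body weight, 4 without the 4 farthest libraries, and 4 to 7 without 1 mouse (4 without KO mouse 15, 30 or 44). Without 1 mouse, differences by time numbered 9 to 12, separated peaks 7 to 8, correlations called 28 to 39 (34 with all mice), and KO time effects and KO waves 0 to 1 each. Why these counts moved was not tested, except that leaving out mice reduces the samples.

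Reversed signs concerned uncalled values. Cry1 at ZT0 was -0.066 with total counts, -0.23 without the 4 farthest libraries and -0.23 to 0.60 without 1 mouse; Cry1 at ZT12 was -0.054 without the 4 and -0.13 to 0.30 without 1 mouse. Without WT mice 40 and 42, Per2 at ZT20 was -0.066, the WT correlation of Per3 with Cry1 -0.495 and the Per2 spread ratio 0.24. Without 1 mouse, Per1 at ZT16 ran from -0.17 to 0.37, Per3 at ZT16 from -0.95 to 0.081, Per2 at ZT20 from -0.067 to 0.55, and r from -0.393 to 0.26 for Per3 with Cry1 in WT, -0.163 to 0.0371 for Per1 with Per2 in KO and -0.0391 to 0.132 for Per1 with Per3 in KO. Mouse numbers pair no samples, since each belongs to 1 mouse. By cage the genotypes are paired in part, as 11 cages held both, and cage entered as the random block above.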
